A study of Mus musculus with 24 samples.

Results

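The interleukin-1 (IL-1) family was followed through 10 genes, taken as the rows of both count tables with the symbols Il1a, Il1b, Il1rn, Il1f9, Il1f6, Il18, Il33, Il1r1, Il1r2 and Il1rl1. All 10 were found among the 54658 gene symbols of the tables. The study examined whether β-nicotinamide mononucleotide (β-NMN), a precursor of the coenzyme NAD+, changes gene expression in male C57BL/6 mice of 7 to 12 weeks with experimental peritonitis. In the thioglycolate (TGC) model of sterile peritonitis, 6 mice received β-NMN intraperitoneally at 185 mg/kg per day and 6 received saline as vehicle, and cells of the peritoneal lavage were plated and then stimulated with Escherichia coli for 6 h. In the cecal ligation and puncture (CLP) model of sepsis, hearts and lungs were taken from the same 6 mice. Of these, 3 were treated with β-NMN at the same dose and 3 with vehicle. By the paper, the TGC mice were injected daily for 3 days. The CLP organs were taken the day after surgery, following a single administration. The title and tissue labels of the organs give CLP, whereas their source labels name thioglycollate peritonitis. Every group therefore carried an ongoing peritonitis, and sham-operated mice were not analysed here, so each comparison is β-NMN against vehicle within peritonitis.

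IL-1α (Il1a) and IL-1β (Il1b) are the agonists of the IL-1 receptor, and are called the agonists here. They bind the type 1 receptor (Il1r1), which recruits the accessory protein IL1RAP and signals through MyD88, IRAK kinases and TRAF6 to NF-κB. The receptor antagonist (Il1rn) occupies the same receptor without signalling, and the type 2 receptor (Il1r2) is a decoy that binds IL-1 and transmits nothing. The IL-36 cytokines IL-36α (Il1f6) and IL-36γ (Il1f9) act on IL1RL2, IL-18 acts on IL18R1 and IL18RAP, and the alarmin IL-33 acts on ST2 (Il1rl1). IL-1β and IL-18 are cut to their active forms by caspase-1 in inflammasomes. Activated macrophages are a classical source of IL-1, whereas IL-33 is held mainly in the nuclei of fibroblasts, endothelial and epithelial cells.

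Of the 7 ligand genes 5 lie on chromosome 2, in separate groups, and the 3 receptor genes on chromosome 1 (GRCm38, annotation of GENCODE M21). Il1b (chr2:129364570-129371139, minus strand) and Il1a (chr2:129299610-129309972, minus strand) are neighbours, and Il1f9 (chr2:24186476-24193568), Il1f6 (chr2:24215418-24225702) and Il1rn (chr2:24336853-24351494) form the other group, on the plus strand. The receptors Il1r2 (chr1:40074079-40125231), Il1r1 (chr1:40225080-40317257) and Il1rl1 (chr1:40429570-40465415) lie on the plus strand of chromosome 1, Il18 (chr9:50554827-50581840) on chromosome 9 and Il33 (chr19:29925114-29960718) on chromosome 19. All 10 are annotated as protein coding. On the opposite strand, exons of Gm14023 overlap those of Il1a over 222 bases, and exons of Il1bos overlap those of Il1b over 25 bases. The strand setting of the counting is unknown here, so reads in these overlaps could not be assigned to 1 gene, but the antisense genes had at most 7.17 and 4.199 CPM (counts per 1 M counts of the library) in any peritoneal library, far under Il1a and Il1b.

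The bases just before the start of transcription are shown for Il1b, Il1a and Il1f9, whose levels differed between treatments in peritoneal cells, and for Il18, which was not called. Each run holds the 150 bases before the start in the RefSeq promoter table (GRCm38.p6), written 5′ to 3′ on the strand of the gene. Capitals mark letters of 4 motifs searched on both strands: TATAAA of the TATA box, TGANTCA of AP-1, GAGGAA of PU.1 and GGGNNNNNCC of NF-κB, where N is any base.
Il1b, chr2:129371140-129371289: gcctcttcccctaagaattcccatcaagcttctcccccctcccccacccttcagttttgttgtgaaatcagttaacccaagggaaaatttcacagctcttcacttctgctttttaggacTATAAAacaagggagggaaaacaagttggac
Il1a, chr2:129309973-129310122: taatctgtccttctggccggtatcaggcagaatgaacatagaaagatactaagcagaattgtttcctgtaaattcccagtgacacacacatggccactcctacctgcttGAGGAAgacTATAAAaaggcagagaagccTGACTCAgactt
Il1f9, chr2:24186326-24186475: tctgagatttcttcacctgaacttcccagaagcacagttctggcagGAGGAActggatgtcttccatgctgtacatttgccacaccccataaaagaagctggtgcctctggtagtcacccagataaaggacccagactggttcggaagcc
Il18, chr9:50554550-50554699: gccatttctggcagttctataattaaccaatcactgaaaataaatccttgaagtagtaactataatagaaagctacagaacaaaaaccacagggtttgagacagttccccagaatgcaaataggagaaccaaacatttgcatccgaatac

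TATAAA began 31 bases before the start of Il1b and 32 bases before that of Il1a. Il1a further held GAGGAA, just upstream of the TATA box, and TGACTCA, which ended 6 bases before the start. Il1f9 held GAGGAA alone, and Il18 held none of the 4 motifs in this window. The windows of Il1r1 and Il1r2, which were called lower in peritoneal cells, and of Il1rl1, which was not called, held none either. The table gave 14 windows for 9 of the 10 genes, since several genes have more than 1 start, and none for Il1f6. TATAAA was found in 3 of these 14 windows (Il1a, Il1b and the inner start of Il33) and in 7.57% of all 32851 windows of this length. The AP-1 letters were found in 2 windows against 4.24% of all, the PU.1 letters in 2 against 14.5% and the NF-κB letters in 2, both of Il1rn, against 35.4%. A match describes letters only.

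Library totals ranged from 31.1 to 112 M counts in peritoneal cells, from 27.3 to 68.5 M in hearts and from 8.92 to 28.4 M in lungs. The peritoneal totals fell into separate ranges, with 3 vehicle and 2 β-NMN libraries between 90.6 and 112 M and the other 7 between 31.1 and 53.3 M. Macrophage markers summed to 5453 to 8339 CPM in vehicle and 10422 to 11985 CPM in β-NMN peritoneal cells, cardiomyocyte markers to 31362 to 51061 CPM in vehicle and 52787 to 58338 CPM in β-NMN hearts, and alveolar markers to 25295 to 46453 CPM in lungs. Vehicle mouse 2 stood apart in both organs. The log2 differences of its heart from the other hearts had an SD across genes of 0.99, against 0.39 to 0.58 for the rest. Those of its lung had an SD of 1.57, against 0.45 to 0.60. Its lung was also the library of 8.92 M counts, against 16.7 to 28.4 M in the other lungs. The organs were therefore also fitted without this mouse, and values that moved are given beside the result.

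In stimulated peritoneal cells, 8 of the 10 genes were lower with β-NMN and none was higher. The IL-36 genes fell most, followed by Il1b, the decoy receptor Il1r2, Il33 and Il1r1, while Il1a and Il1rn fell least. Il18 and Il1rl1 did not pass the test. Genes were called at an adjusted p below 0.05 in edgeR's quasi-likelihood test. Of all 14985 genes tested, 27.9% were called lower and 23.7% higher, so the background was itself large. The median log2 change of the 10 genes was −2.17, against −0.02 over all genes. In bulk RNA, fewer cells of a type and less RNA per cell cannot be told apart.

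**Figure D1:**
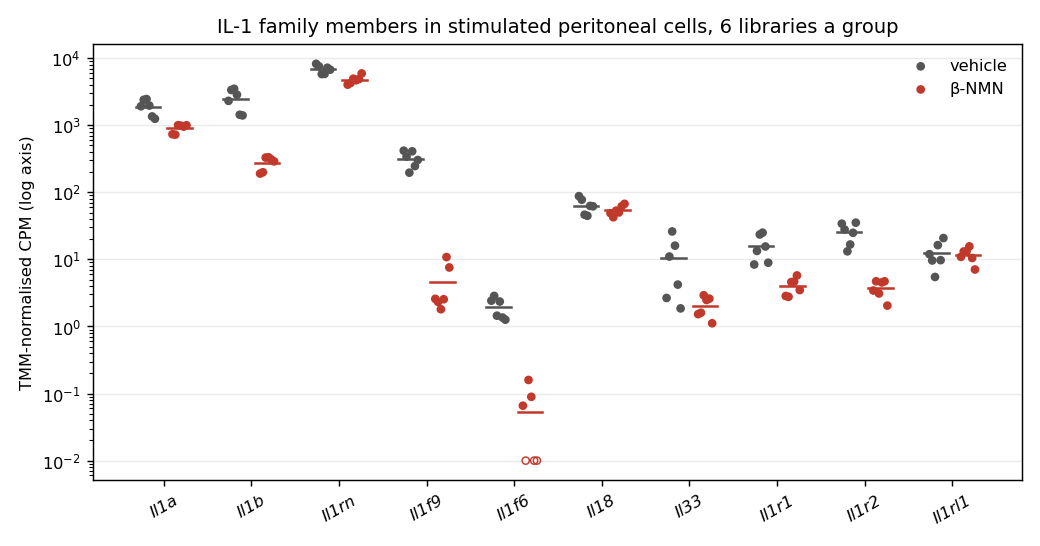
TMM-normalised CPM on a log axis for each of the 10 genes in stimulated peritoneal cells, with 1 point per mouse (6 vehicle in grey, 6 β-NMN in red) and a line at each group mean. Open points on the lower edge are libraries with a count of 0. The groups were separate for Il1a, Il1b, Il1f9, Il1f6, Il1r1 and Il1r2, and overlapped for Il1rn, Il18, Il33 and Il1rl1.

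Il1b had 1403 CPM in the lowest, 2585 in the median and 3502 in the highest vehicle library. With β-NMN these values were 190, 299.7 and 333. The highest β-NMN library was thus well under the lowest vehicle library. The fall was 9.002-fold (log2 change −3.17, SE 0.26, adjusted p = 2.55e-07). It was of the same size among the libraries of 31.1 to 53.3 M counts (−3.25, SE 0.17) and among those of 90.6 to 112 M (−3.21, SE 0.35).

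Il1a ran from 1250 CPM through a median of 1944 to 2459 in vehicle cells, and from 725 through 971 to 1003 in β-NMN cells. The groups did not overlap either, yet the fall was only 2.10-fold (log2 change −1.07, SE 0.17, adjusted p = 0.000111). Per length, the agonists therefore changed places. In every vehicle library Il1b stood above Il1a, with an RPKM (CPM per kilobase of exon) ratio of 1.10 to 1.504, and in every β-NMN library it stood below, with a ratio of 0.27 to 0.35.

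Il1rn, the antagonist, had 5807 CPM in the lowest, 6974 in the median and 8245 in the highest vehicle library. The β-NMN libraries ran from 4033 through 4785 to 5926 CPM. Only the highest β-NMN library, replicate 6, reached into the vehicle range. The fall was 1.44-fold (log2 change −0.53, SE 0.12, adjusted p = 0.00221), and it was not called among the libraries of 31.1 to 53.3 M counts (−0.47, adjusted p = 0.0573). The RPKM ratio of Il1rn to Il1b was 1.11 ± 0.503 (SD, n = 6) in vehicle cells, with a range of 0.57 to 1.73. In β-NMN cells it was 6.20 ± 1.16 (SD, n = 6), with a range of 4.85 to 7.38, so the transcript of the antagonist was in excess of that of IL-1β in all 6 β-NMN libraries.

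Il1f9, which encodes IL-36γ, showed the largest change of the 10. Its vehicle libraries ran from 196 CPM through a median of 322 to 418, and its β-NMN libraries from 1.81 through 2.56 to 10.8. The highest β-NMN value, in replicate 5, was far under the lowest vehicle value. The log2 change was −6.13 (SE 0.47, adjusted p = 1.55e-07), a 70.2-fold fall. It was smaller among the libraries of 31.1 to 53.3 M counts (−5.78, SE 0.58) and larger among those of 90.6 to 112 M (−6.96, SE 0.29).

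Il1f6, which encodes IL-36α, was scarce. It had 1.26 to 2.86 CPM in vehicle cells, with a median of 1.90, and no more than 0.159 CPM with β-NMN, where 3 of the 6 libraries held no count. The 6 vehicle libraries held 822 counts together and the 6 β-NMN libraries 16. The log2 change was −5.29 (SE 0.57, adjusted p = 3.53e-06), and its size rests on these few counts.

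Il18 did not separate the groups. It ran from 44.7 CPM through a median of 62.4 to 87.8 in vehicle cells and from 42.5 through 51.7 to 67.4 in β-NMN cells, so that most libraries overlapped. The log2 change was −0.23 (SE 0.16, adjusted p = 0.250). Only limma-voom with quality weights called it.

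Il33 varied widely among vehicle mice, from 1.86 CPM through a median of 7.63 to 26.1, and narrowly with β-NMN, from 1.12 through 2.04 to 2.92. Vehicle replicates 1 and 6, at 2.66 and 1.86 CPM, lay within the β-NMN range, and replicates 2, 3 and 4 were highest. The log2 change was −2.35 (SE 0.55, adjusted p = 0.00253), and with limma-voom it was −1.56 (SE 0.48, adjusted p = 0.0107). It was not called among the libraries of 90.6 to 112 M counts (−2.15, adjusted p = 0.0858).

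Among the receptors, Il1r1 ran from 8.40 CPM through a median of 14.5 to 25.1 in vehicle cells and from 2.77 through 4.04 to 5.76 in β-NMN cells, without overlap. It fell 3.97-fold (log2 change −1.99, SE 0.28, adjusted p = 4.68e-05). The decoy Il1r2 ran from 13.2 through 26.4 to 35.3 CPM and from 2.05 through 3.99 to 4.72 CPM, again without overlap, and fell 6.72-fold (log2 change −2.75, SE 0.26, adjusted p = 1.08e-06). The ratio of Il1r2 to Il1r1 in RPKM had a median of 6.14 in vehicle cells (range 1.87 to 13.6) and of 2.98 with β-NMN (range 1.96 to 5.67), and these ranges overlapped. The IL-33 receptor Il1rl1 had 5.47 to 20.8 CPM in vehicle cells, with a median of 10.9, and 7.07 to 15.6 CPM with β-NMN, with a median of 12.0. The β-NMN values lay inside the vehicle range, and the log2 change was −0.08 (SE 0.26, adjusted p = 0.832), with a sign that changed in several other fits.

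An exact two-sided permutation test of mean log2 CPM gave p = 0.00216, the smallest that 6 against 6 allows, for the 6 genes whose groups did not overlap. The same test gave 0.00649 for Il1rn, 0.0173 for Il33, 0.294 for Il18 and 0.978 for Il1rl1. Over all genes tested, 14.0% had every β-NMN library below every vehicle library.

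Markers of other cell types moved with several of these genes. The 5 fibroblast markers summed to 89.6 to 956 CPM in vehicle cells and to 19.8 to 85.9 CPM with β-NMN, and all 4 that were tested fell. Within the vehicle group, the fibroblast sum was highest in replicates 3 and 4 (956 and 438 CPM), where Il33 (26.1 and 16.04 CPM) and Il1r1 (23.5 and 25.1 CPM) were highest too, and lowest in replicates 1 and 6, where both genes were lowest. The neutrophil markers summed to 495 to 1007 CPM in vehicle cells and to 335 to 468 CPM with β-NMN, with 6 of 8 tested falling and 1 rising. T, NK and innate lymphoid markers summed to 15.2 to 73.2 CPM and to 8.17 to 12.6 CPM, and all 7 fell. Mesothelial markers summed to 1.84 to 12.3 CPM and to 1.01 to 4.00 CPM, with 2 of 3 falling and none rising. B cell markers summed to 30.6 to 149 CPM and to 20.6 to 81.6 CPM, with 2 of 4 falling and none rising. Macrophage markers were higher with β-NMN in sum, and 3 of their 7 genes rose. The 4 markers of resident peritoneal macrophages summed to 13.4 to 18.9 CPM in vehicle and 19.1 to 42.6 CPM in β-NMN cells, with 2 falling and 2 rising. Erythroid markers summed to 2.91 to 38.8 CPM in vehicle and 52.5 to 133 CPM in β-NMN cells, and all 5 rose. The mitochondrial share of counts was 0.504% to 0.653% in vehicle and 0.599% to 0.886% in β-NMN libraries. No marker of these lists was at 0 throughout a group. The part of these cell types in the changes of the IL-1 family was not tested.

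**Figure D2:**
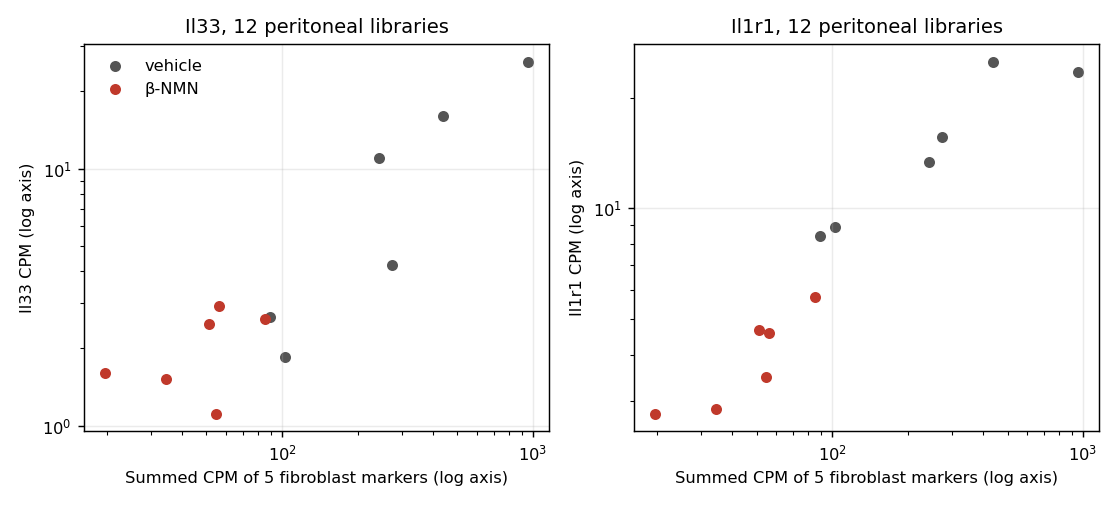
Il33 (left) and Il1r1 (right) in CPM against the summed CPM of 5 fibroblast markers in the 12 peritoneal libraries, all on log axes, with vehicle in grey and β-NMN in red. The vehicle libraries with the most fibroblast marker RNA, at 438 and 956 CPM, also held the most Il33 and Il1r1.

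The receptor cluster of chromosome 1 did not change as a block in peritoneal cells. In order of position, the log2 changes were −2.75 for Il1r2, −1.99 for Il1r1, 0.34 for the IL-36 receptor Il1rl2, −0.08 for Il1rl1, −1.52 for Il18r1 and −1.75 for Il18rap. Of the other family genes, 6 of 11 were tested. Il18rap had 47.2 ± 19.9 CPM in vehicle and 14.1 ± 1.71 CPM in β-NMN cells (SD, n = 6 each) and fell, with an adjusted p of 3.22e-05. Il18r1, the other chain of the IL-18 receptor, fell from 22.0 ± 11.7 to 7.72 ± 1.57 CPM (SD, n = 6 each, adjusted p = 0.000611 in edgeR). Il1rl2 rose from 37.9 ± 6.60 to 48.0 ± 3.65 CPM (SD, n = 6 each, adjusted p = 0.0152 in edgeR). The accessory protein Il1rap had a log2 change of 0.08 (SE 0.10), the IL-18 binding protein Il18bp of −0.43 (SE 0.21) and the inhibitory receptor Sigirr of −0.45 (SE 0.25), and none of the 3 passed.

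Of 17 genes for signalling behind these receptors, all were tested and 10 were called, 8 lower and 2 higher, with a median log2 change of −0.24. Of all genes, 27.9% were called lower and 23.7% higher, so the total of 10 of 17 lay near the background. Irak3, an inhibitory IRAK, had 152 ± 33.3 CPM in vehicle and 27.0 ± 4.11 CPM in β-NMN cells (SD, n = 6 each). Its log2 change was −2.49 (SE 0.15, adjusted p = 1.86e-08). Irak2 fell by 0.80 on the log2 scale (SE 0.12) and Traf6 by 0.46 (SE 0.10). The 2 that rose were Tab2 (0.32) and Irak1 (0.27), named here after their values were seen. Myd88, named after its value was seen as well, had a log2 change of −0.23 (SE 0.13), with an adjusted p of 0.144.

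Of 12 genes for ligand processing, 6 were called, 3 in each direction, again near the 27.9% and 23.7% of all genes, and the median log2 change was 0.06. The inflammasome sensor Nlrp3 fell from 912 ± 184 to 144 ± 104 CPM (SD, n = 6 each), with a log2 change of −2.66 (SE 0.33). Nlrc4, another sensor, fell by 1.74 on the log2 scale (SE 0.19), whereas Nek7, a partner of NLRP3, rose by 0.81 (SE 0.07). Named after their values were seen, as was Casp1, Mefv fell (−0.84), and Aim2 (0.74) and the adaptor Pycard (1.26) rose. Casp1, which cuts IL-1β and IL-18, had 190 ± 28.7 CPM in vehicle and 208 ± 17.7 CPM in β-NMN cells (SD, n = 6 each, adjusted p = 0.298 in edgeR).

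In CLP hearts, no gene passed an adjusted p of 0.05, yet all 8 members tested were lower with β-NMN. Their log2 changes ran from −3.51 for Il33 to −1.03 for Il18, with a median of −1.68 against −0.01 over all genes. Without vehicle heart 2 they ran from −2.07 for Il33 to −0.36 for Il18. For 7 of the 8, every β-NMN heart lay below every vehicle heart, and this held for 11.5% of the 16245 genes tested, while 11.6% lay above. The share called was 0.0% by edgeR, 1837 genes had an unadjusted p below 0.05, and 6 of the 8 members were among these. DESeq2 called 287 genes, among them Il1b, Il1rn, Il33 and Il1r2, and limma-voom called 3 genes and no member. Without vehicle heart 2, edgeR called 5 genes and no member. The number of genes with an unadjusted p below 0.05 fell to 888 without β-NMN heart 1 and 901 without β-NMN heart 2, with 4 of 9 members each, and lay between 1226 and 2721, with 5 to 7 members, without any other heart. An exact permutation test of 3 against 3 cannot give a p under 0.1.

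**Figure D3:**
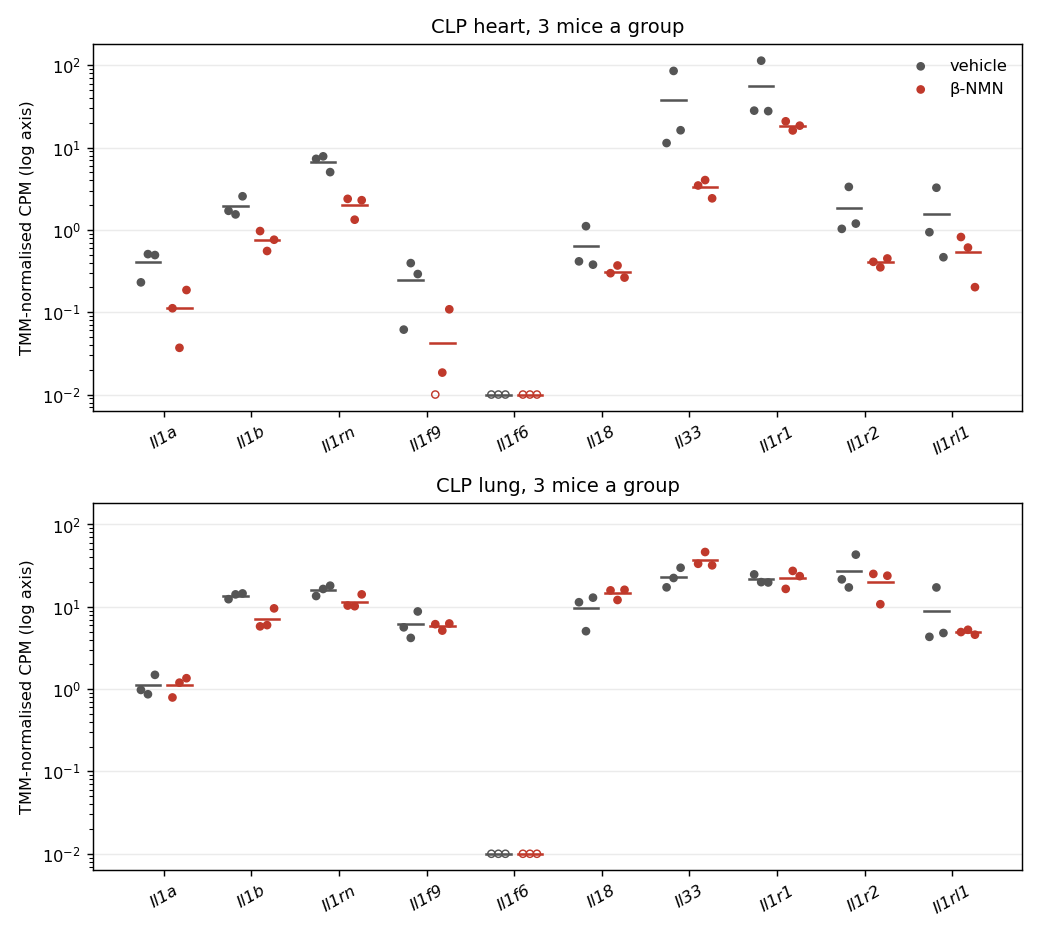
TMM-normalised CPM on a log axis for each of the 10 genes in CLP hearts (top) and lungs (bottom), with 1 point per mouse (3 vehicle in grey, 3 β-NMN in red) and a line at each group mean. Open points on the lower edge are libraries with a count of 0. In hearts the vehicle values lay above the β-NMN values for 7 of 8 tested genes, and in lungs only Il1b and Il33 had separate groups, in opposite directions.

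Il33 was at 11.4, 85.4 and 16.2 CPM in vehicle hearts 1 to 3 and at 3.46, 4.03 and 2.42 CPM in β-NMN hearts. Vehicle heart 2 was far above all others, and the groups were also separate without it. The log2 change was −3.51 (SE 0.81, adjusted p = 0.435), and without vehicle heart 2 it was −2.07 (SE 0.24, adjusted p = 0.109). Vehicle heart 2 also had the highest fibroblast marker sum, 1745 CPM against 765 to 1092 in the other 5 hearts, the highest mesothelial sum, 89.9 CPM, and the lowest mitochondrial share of counts, 12.9% against 18.2% to 22.7%. The mesothelial sum was 9.67 and 11.3 CPM in the other vehicle hearts and 5.51 to 9.48 CPM in β-NMN hearts, so its groups were separate with and without vehicle heart 2. Cardiomyocyte marker sums were separate in the other direction, at 49750, 31362 and 51061 CPM in vehicle hearts 1 to 3 and 52787 to 58338 CPM with β-NMN. The 4 genes listed for resident peritoneal macrophages, Lyve1 among them, summed to 154, 253 and 157 CPM in vehicle hearts. With β-NMN they summed to 135 to 144 CPM. Peritoneal cells themselves had 13.4 to 42.6 CPM, so the sum is not read as this cell type in hearts. No marker of these lists was called, and their part in the changes was not tested.

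Il1r1 followed the same pattern, with 28.1, 114 and 27.7 CPM in vehicle hearts and 20.9, 16.1 and 18.5 CPM in β-NMN hearts. Its log2 change of −1.61 (SE 0.56) shrank to −0.60 (SE 0.12) without vehicle heart 2. The decoy Il1r2 was at 1.03, 3.33 and 1.19 CPM against 0.41, 0.35 and 0.45 CPM, a log2 change of −2.19 (SE 0.52), and of −1.46 (SE 0.30) without vehicle heart 2. Il1rl1 was low, at 0.94, 3.25 and 0.47 CPM in vehicle and 0.82, 0.61 and 0.20 CPM in β-NMN hearts, where the groups overlapped. Its log2 change was −1.56 (SE 0.81), and −0.46 (SE 0.60) without vehicle heart 2.

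The values of the agonists and the antagonist moved less when that heart was left out. Il1b was at 1.71, 1.54 and 2.56 CPM in vehicle hearts and at 0.97, 0.55 and 0.76 CPM in β-NMN hearts, with a log2 change of −1.35 (SE 0.33), and −1.51 (SE 0.33) without vehicle heart 2. Il1rn was at 7.30, 7.83 and 5.03 CPM against 2.38, 1.33 and 2.29 CPM, with a log2 change of −1.75 (SE 0.30), and −1.64 (SE 0.29) without that heart. The lowest vehicle heart had more than the highest β-NMN heart for both genes. Il1a stood on 2 to 27 counts per heart, at 0.23, 0.51 and 0.49 CPM against 0.11, 0.04 and 0.19 CPM, with a log2 change of −1.81 (SE 0.61), and −1.60 (SE 0.69) without that heart. Single β-NMN hearts mattered more for Il1a, with −2.56 (SE 0.72) without β-NMN heart 3 and −1.37 (SE 0.57) without β-NMN heart 2. Neutrophil markers summed to 27.0 to 44.4 CPM in vehicle and 16.1 to 19.97 CPM in β-NMN hearts, with 0 of 9 tested called, and their part was not tested.

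Il18 was at 0.41, 1.11 and 0.38 CPM in vehicle and 0.30, 0.37 and 0.26 CPM in β-NMN hearts. The highest β-NMN heart lay just under the lowest vehicle heart, and the log2 change of −1.03 (SE 0.50) became −0.36 (SE 0.38) without vehicle heart 2. Il1f9, with 4 to 21 counts in vehicle and 0 to 7 in β-NMN hearts, was too low to be tested. Il1f6 had no count in any of the 12 organ libraries, which allows between 0.0438 and 0.336 CPM depending on the library total, at 3 counts per library.

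In CLP lungs, the family did not move in one direction. Of 9 members tested, 6 log2 changes were negative and 3 positive, the median was −0.09 against 0.00 over all genes, and 0.0% of the 17008 genes were called. An unadjusted p below 0.05 was reached by 301 genes, among them Il1b and Il33, and DESeq2 and limma-voom called 5 and 7 genes and no member. Leaving out single lungs moved this number between 127 (without β-NMN lung 2) and 755 (without vehicle lung 2), and 0 members were among these genes without β-NMN lung 1 or without β-NMN lung 2. Every β-NMN lung lay below every vehicle lung for 3.75% of genes tested and above for 4.47%.

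Il1b was at 12.4, 14.2 and 14.5 CPM in vehicle lungs and at 5.79, 5.99 and 9.57 CPM in β-NMN lungs. The groups were separate, with a log2 change of −0.94 (SE 0.30, adjusted p = 0.969). Il33 went the other way, from 17.2, 22.4 and 29.8 CPM to 33.3, 46.3 and 31.9 CPM, again without overlap, with a log2 change of 0.68 (SE 0.28, adjusted p = 0.969). Without vehicle lung 2 these values were −0.91 (SE 0.26) and 0.66 (SE 0.27). Several marker sums were separate between these groups too. Macrophage markers summed to 3967, 1237 and 4273 CPM in vehicle lungs 1 to 3 and to 5442, 5143 and 4987 CPM in β-NMN lungs. Dendritic cell markers ran from 27.7 to 66.3 CPM and from 67.8 to 89.9 CPM, eosinophil markers from 15.2 to 34.6 CPM and from 34.8 to 43.96 CPM, and cardiomyocyte markers from 248 to 412 CPM and from 71.9 to 243 CPM. None of these markers was called, and their part was not tested. Il1rn was at 13.5, 16.5 and 18.1 CPM against 10.4, 10.2 and 14.2 CPM and overlapped in 1 lung of each group (log2 change −0.47, SE 0.26, and −0.44, SE 0.23, without vehicle lung 2). The RPKM ratio of Il1rn to Il1b was 0.40 ± 0.03 (SD, n = 3) in vehicle lungs and 0.57 ± 0.05 (SD, n = 3) with β-NMN. Per length, Il1b was thus above its antagonist in every lung. In peritoneal cells this held for 3 of the 6 vehicle libraries and for 0 of the 6 β-NMN libraries. The order rests on merged exon lengths of 5535 bases for Il1rn and 1907 for Il1b. In CPM, Il1rn was above Il1b in every lung and every peritoneal library.

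Il18 was at 11.4, 5.06 and 12.9 CPM in vehicle and 15.8, 12.1 and 16.1 CPM in β-NMN lungs, with a log2 change of 0.57 (SE 0.38), and 0.27 (SE 0.21) without vehicle lung 2, its lowest library. Il1rl1 was at 17.2 CPM in vehicle lung 2 and between 4.32 and 5.26 CPM in the other 5 lungs. Its log2 change of −0.81 (SE 0.57) became 0.11 (SE 0.24) without that lung. In the same lung, T, NK and innate lymphoid markers summed to 163 CPM against 14.6 to 27.4 CPM in the others, with Gata3 at 138 CPM. Its mast cell and basophil markers summed to 10.5 CPM against 1.32 to 3.96 CPM, of which Mcpt4 gave 7.08 CPM, while Cpa3, at 0.722 CPM, lay within the 0.403 to 1.16 CPM of the other lungs and 4 of the 7 markers were detected. It also stood apart in Lyve1 (4154 CPM against 200.05 to 372), erythroid markers (11867 CPM against 1999 to 4088) and macrophage markers, as given above. Il1f9 ran from 4.19 to 8.78 CPM and from 5.14 to 6.27 CPM, Il1r1 from 19.8 to 24.8 and from 16.5 to 27.3, Il1r2 from 17.2 to 43.0 and from 10.7 to 25.1, and Il1a from 0.87 to 1.49 and from 0.79 to 1.36, in vehicle and β-NMN lungs respectively. All 4 overlapped, and their log2 changes lay between −0.46 and 0.06. Without vehicle lung 2 these were −0.30 (SE 0.26) for Il1f9, 0.01 (SE 0.24) for Il1r1, −0.70 (SE 0.39) for Il1r2 and −0.12 (SE 0.44) for Il1a.

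**Figure D4:**
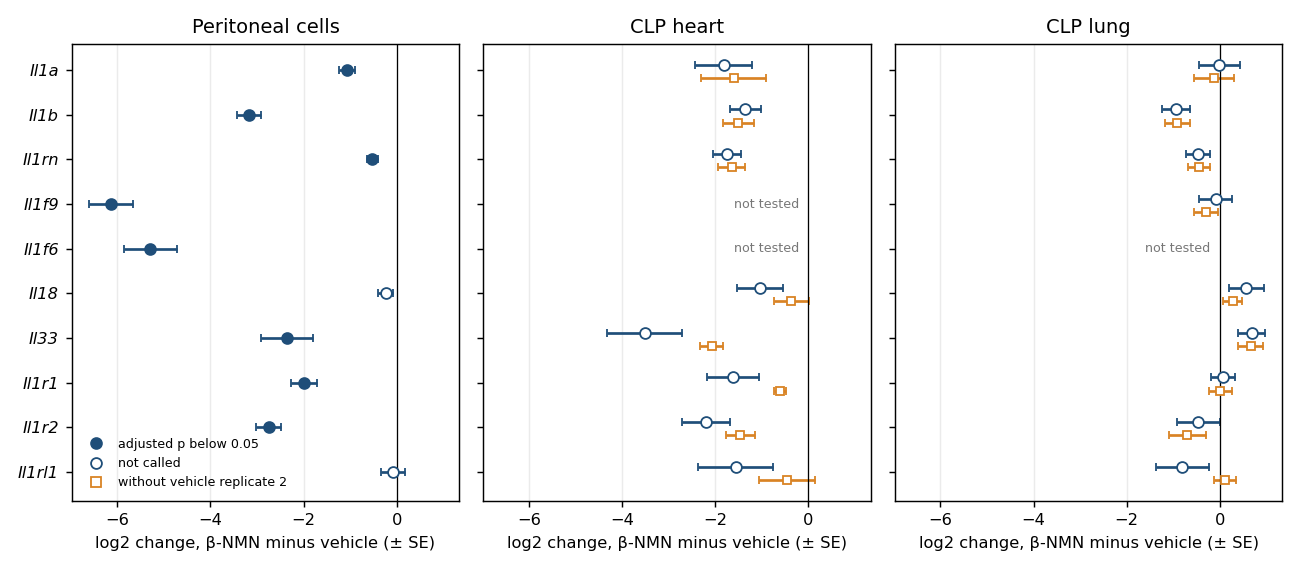
Log2 change, β-NMN minus vehicle, with its SE for each of the 10 genes in peritoneal cells, CLP hearts and CLP lungs. Filled circles passed an adjusted p of 0.05, open circles did not, and orange squares leave out vehicle replicate 2 of the organ. Peritoneal cells held 8 filled circles, all 8 heart values were negative, and the lung values lay between −0.94 and 0.68.

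The difference between the organs in their response was tested as an interaction over the 12 organ libraries. Of 18318 genes, 0.0% were called, 797 had an unadjusted p below 0.05 and 6 of 9 members were among these. This fit did not use the pairing of organs by mouse. With the mouse as a block, an unadjusted p below 0.05 was reached by 498 genes and 3 of 9 members. Without both organs of vehicle mouse 2, and without the block, it was reached by 936 genes and 2 of 9 members, Il33 and Il1rn. With single libraries left out it was reached by 415 (without vehicle heart 2) to 1238 genes and 2 to 7 members. All 9 differences, lung effect minus heart effect, were positive. The largest was that of Il33, 4.19 (SE 0.88, adjusted p = 0.960), and it was 2.701 (SE 0.42, adjusted p = 0.288) without both organs of vehicle mouse 2. With the mouse as a block it was 3.60 (SE 0.76, adjusted p = 0.948). DESeq2 called Il33 and no other member, as did edgeR without the low-count filter. They called 14 of 35253 and 2 of 35599 genes in all. The differences were 1.30 (SE 0.41) for Il1rn, 1.82 (SE 0.80) for Il1a, 1.59 (SE 0.66) for Il18 and 0.43 (SE 0.46) for Il1b. Without both organs of vehicle mouse 2 they were 1.18 (SE 0.39), 1.45 (SE 0.81), 0.61 (SE 0.34) and 0.57 (SE 0.42). That of Il1a ranged from 1.39 without β-NMN heart 2 to 2.53 without β-NMN heart 3, and that of Il18 was 0.91 without vehicle heart 2 alone. The differences of Il1r1 and Il1r2, 1.68 (SE 0.66) and 1.72 (SE 0.73), were 0.60 (SE 0.29) and 0.72 (SE 0.58) without both organs of that mouse.

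Between the organs themselves, 8 of the 9 members tested differed at an adjusted p of 0.05, 7 higher in lung and 1 lower, where 35.9% of all genes were called higher in lung and 28.9% lower. Log2 differences, lung minus heart, were 5.05 (SE 0.55) for Il1f9, 4.08 (SE 0.36) for Il18, 4.08 (SE 0.40) for Il1r2, 2.36 (SE 0.24) for Il1b, 2.14 (SE 0.53) for Il1rl1, 1.71 (SE 0.41) for Il1a and 1.22 (SE 0.21) for Il1rn. Il1r1 was lower in lung, by −1.22 (SE 0.33). The value of Il1f9 rests on 35 counts in the vehicle hearts and 8 in the β-NMN hearts together, and was 5.95 (SE 0.61) without β-NMN heart 3. Without both organs of vehicle mouse 2 these 8 members were called in the same directions, at 5.35 for Il1f9, 4.46 for Il18, 4.47 for Il1r2, 2.20 for Il1b, 2.18 for Il1rl1, 1.77 for Il1a, 1.18 for Il1rn and −0.79 for Il1r1. Il33 was not called (0.73, SE 0.43, adjusted p = 0.153), but was called with the mouse as a block (1.03, SE 0.38, adjusted p = 0.0456) and without vehicle heart 2 (1.34, SE 0.22, adjusted p = 0.000335).

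Per length, the order of the members differed by tissue. In vehicle peritoneal cells Il1b led with 1299 ± 483 RPKM, ahead of Il1rn with 1246 ± 175 and Il1a with 958 ± 257 (SD, n = 6 each), and the ranges of these neighbours overlapped. They ranked 33, 34 and 44 among the 54000 symbols with a length. Il1f9 (194 ± 53.6 RPKM) and Il18 (61.6 ± 16.5 RPKM) followed, each clear of its neighbours, then Il1r2 (13.3 ± 4.72 RPKM), and Il33, Il1r1, Il1f6 and Il1rl1 lay between 1.79 and 3.58 RPKM with overlapping ranges. With β-NMN, Il1rn (865 ± 119 RPKM), Il1a (456 ± 67.5), Il1b (144 ± 33.7) and Il18 (52.4 ± 8.87) stood in this order without overlap, at ranks 45, 94, 363 and 894. Il1f9 went from rank 271 to rank 6002.

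In vehicle hearts, Il33 (13.0 ± 14.3 RPKM) and Il1r1 (8.88 ± 7.78) led with overlapping ranges, and no other member was above 1.21 RPKM on average (SD, n = 3). In β-NMN hearts Il1r1 led alone, with 2.91 ± 0.370 RPKM against 1.14 ± 0.283 for Il33 (SD, n = 3 each). In vehicle lungs, Il1r2 (14.3 ± 7.25 RPKM), Il18 (9.49 ± 4.04), Il33 (8.02 ± 2.19) and Il1b (7.18 ± 0.605) overlapped from each to the next. In β-NMN lungs, Il18 (14.2 ± 2.17 RPKM), Il33 (12.9 ± 2.75) and Il1r2 (10.4 ± 4.17) overlapped, and Il1b (3.73 ± 1.12) stood clear below them (SD, n = 3 each). The levels of peritoneal cells and of organs come from separate tables and experiments and are set side by side only.

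**Figure D5:**
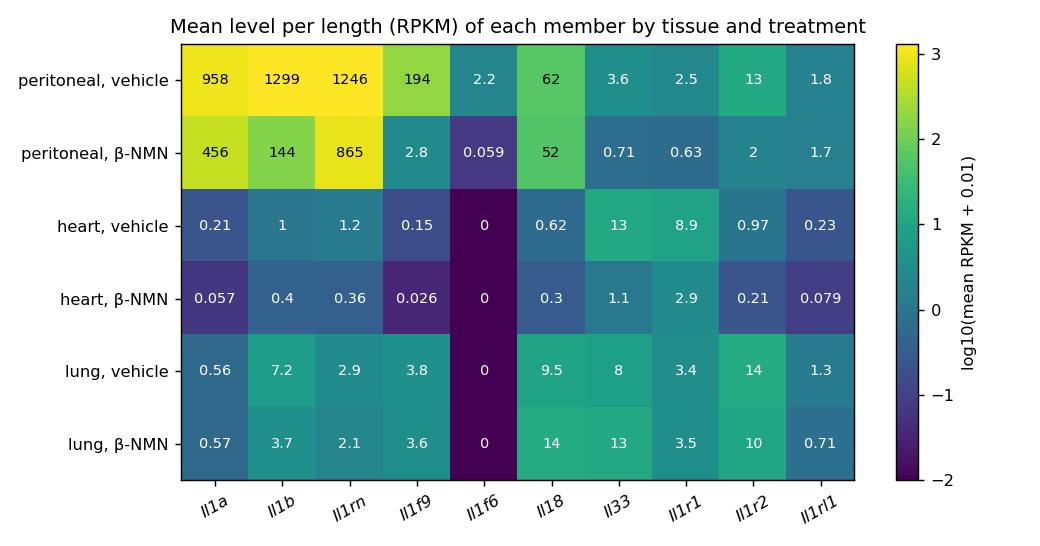
Mean RPKM of each of the 10 genes (columns) in the 6 groups (rows), printed in each cell and coloured on a log10 scale after adding 0.01. The highest cells are Il1b, Il1rn and Il1a in vehicle peritoneal cells, at 1299, 1246 and 958 RPKM, and the 4 cells at 0 are Il1f6 in the organs.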

How the data were processed

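RNA was sequenced from E. coli-stimulated peritoneal cells (6 mice given vehicle, 6 given β-NMN), and from hearts and lungs of 3 and 3 mice after CLP. The authors selected poly(A) RNA, aligned reads to mm10 with STAR (2.7.3a in the submitters' processing notes), counted them per gene with featureCounts 2.0.0 and deposited raw counts per gene symbol, 1 column per library. The annotation and strand setting are not given in the sources used here. Every column was matched to a sample by its label. A β-NMN heart titled as replicate 3 was taken as replicate 2, since the lung of its mouse carries that number.

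Tissues were fitted separately with edgeR 4.0.16 in R 4.3.3 (filterByExpr defaults, TMM, the older quasi-likelihood form), with Benjamini-Hochberg adjustment over all genes tested. Organs were compared, and their responses contrasted, in 1 fit of the 12 CLP libraries. CPM used TMM-scaled totals, log2 CPM a prior count of 2, and RPKM the merged exon length of GENCODE M21, which 54000 of 54658 symbols matched once. The members and gene lists were chosen with earlier results of these data known. The text names all 10 members, the 3 genes with the smallest p in each of 3 further lists, and Il1rap, Il18r1, Il18rap, Il18bp and Sigirr, besides 7 genes of these lists named in peritoneal cells after their values were seen. Exact permutation tests were two-sided (scipy 1.17.1). The fits were tested on simulated counts. Alternatives were DESeq2 1.42.0, its size factors, no low-count filter, the newer and robust edgeR forms, limma-voom (limma 3.58.1), both organs in 1 fit, a replicate block, leaving out each library, and, added after seeing the data, the peritoneal libraries under or over 60 M counts and vehicle mouse 2 left out. The labels give the mouse of each organ column, and the methods give 6 mice per group for the peritoneal cells. Hearts and lungs of 1 mouse are paired by the animal, with correlations of their deviations of 0.04 to 0.15. Limits for counts of 0 cover counting error only.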

Additional observations from a re-analysis of the deposited data

Results flagged for a closer look

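Il33 had group differences of opposite sign in the organs of the same mice, called in neither organ by edgeR. DESeq2 called it in hearts. All 3 β-NMN hearts lay below all 3 vehicle hearts, and all 3 β-NMN lungs lay above all 3 vehicle lungs. The lung effect minus the heart effect was 4.19 on the log2 scale (SE 0.88), and 2.701 (SE 0.42) without both organs of vehicle mouse 2. In the edgeR interaction test it had an unadjusted p of 0.000491 and an adjusted p of 0.960, so the difference did not pass the correction over 18318 genes. Over the alternatives that kept all 12 libraries, edgeR without the low-count filter and DESeq2 called it, among 2 and 14 genes called. In peritoneal cells, no library of a group of 6 stood apart from its group by Dixon's test for any of the 10 genes.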

How the results depend on the processing

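In peritoneal cells, 8 members were called in edgeR, and 8 with each library left out, with DESeq2, its size factors, no low-count filter and the newer and robust edgeR forms. It was 9 with limma-voom, which added Il18. It was 7 in either range of library totals, where Il1rn (under 60 M counts) or Il33 (over 60 M counts) was lost. Of all genes tested, edgeR called 7733 of 14985 and limma-voom 8863. The fits under and over 60 M counts called 4244 of 15198 and 5717 of 18730. Replicate numbers did not pair vehicle with β-NMN libraries, with correlations of deviations from −0.17 to 0.13 in peritoneal cells, 0.07 to 0.24 in hearts and −0.52 to 0.30 in lungs, and a replicate block gave 8 members in peritoneal cells, 0 in hearts and 0 in lungs. In hearts, 0 members were called except with DESeq2, which called 4 among 287 genes. In lungs it was 0 throughout. The interaction of organ and treatment called 0 members, and 1 with DESeq2 and 1 without the low-count filter, among 14 and 2 genes called. Between organs it was 8, and 8 to 9 with each library left out. It was 9 (Il33 added) with limma-voom, the mouse as a replicate block, or vehicle mouse 2 or its heart left out. Of 18318 genes, edgeR called 11873 there, limma-voom 14677 and the block 11408. The exact test counted 8 members at an unadjusted p below 0.05 with either prior count. It was run on the members only, so no share over all genes stands beside it.

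Changes of sign were confined, over all alternatives run, to values that were not called. For Il1rl1 in peritoneal cells the log2 change was 0.11 with limma-voom, 0.017 with the replicate block, 0.39 in libraries under 60 M counts and −0.18 to 0.14 with each library left out. In lungs, Il1a was at 0.0073 without the low-count filter, 0.17 with limma-voom, 0.0026 with both organs in 1 fit and −0.16 to 0.29 with each library left out, and Il1rl1 at 0.077 with limma-voom and −1.12 to 0.11 with each library left out. Leaving out lungs one by one also turned Il1f9 (−0.30 to 0.26), Il1r1 (−0.095 to 0.24) and Il1r2 (−0.70 to 0.051), and leaving out hearts or lungs moved the interaction of Il1rl1 between −0.35 and 1.64. With limma-voom and quality weights, values kept their sign but moved by over 1.5 times in hearts for Il33 (−2.02), Il1r2 (−1.46), Il1rl1 (−0.71), Il1r1 (−0.68) and Il18 (−0.39), in the interaction for Il33 (2.84), Il1r2 (1.06), Il18 (0.77) and Il1r1 (0.699), between organs for Il1f9 (5.94) and Il33 (1.33), and in peritoneal cells for Il1f9 (−6.76) and Il33 (−1.56). The cause was not tested. The organs had 3 mice per group, and Il1a, Il18, Il1rl1 and Il1f9 had few counts in hearts. How far this limited what could be called was not tested.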

Other observations

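Other genes of the family and of its signalling were not called in either organ by edgeR. In hearts, 5 of 6 tested family genes had negative log2 changes, with and without vehicle heart 2. Il18r1 was at 0.215, 9.22 and 0.291 CPM in vehicle hearts 1 to 3 and at 0.149, 0.480 and 0 CPM in β-NMN hearts, so that its log2 change of −3.93 (SE 1.77) rests on vehicle heart 2, without which it was −0.24 (SE 1.15). Without that heart Il18rap went from −2.14 (SE 0.71) to −1.31 (SE 0.56), Il1rl2 from −1.32 (SE 0.49) to −0.57 (SE 0.22), Il1rap from −0.92 (SE 0.27) to −0.61 (SE 0.17) and Il18bp from −0.47 (SE 0.21) to −0.39 (SE 0.20). Sigirr, a receptor that dampens IL-1 signalling, had a positive one, 1.00 (SE 0.41), with 4.02 ± 2.03 CPM (SD, n = 3) in vehicle hearts and 8.03 ± 0.427 CPM (SD, n = 3) with β-NMN, and it was 0.62 (SE 0.13) without vehicle heart 2. The adjusted p of these 6 genes lay between 0.435 and 0.436. Of the signalling genes, Peli1 (−0.41), Irak3 (−0.73) and Irak2 (−0.39) had the smallest p in hearts, and of the processing genes Nlrp3 (−0.96), Casp4 (−1.19) and Nlrc4 (−0.50). Without vehicle heart 2 these were −0.37, −0.50 and −0.31, and −0.83, −0.51 and −0.41. The medians were −0.22 over 17 signalling genes and −0.23 over 10 processing genes, against −0.01 over all genes, and −0.07 and −0.22 (17 and 12 genes) without that heart.

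In lungs, the IL-18 receptor chain Il18r1 was at 108 ± 13.5 CPM in vehicle and 109.9 ± 25.5 CPM in β-NMN mice (SD, n = 3 each), with a log2 change of 0.02 (SE 0.26), and −0.08 (SE 0.21) without vehicle lung 2. Il18rap had a log2 change of −0.54 (SE 0.36), Il18bp of −0.32 (SE 0.38), Il1rap of 0.19 (SE 0.31) and Sigirr of 0.07 (SE 0.22), which without that lung were −0.34 (SE 0.30), −0.57 (SE 0.25), 0.12 (SE 0.27) and −0.06 (SE 0.17). Among signalling genes, Myd88 (−0.42), Peli1 (−1.70) and Irak2 (−0.45) had the smallest p. Peli1 was at 59.03, 507 and 48.3 CPM in vehicle lungs 1 to 3 and at 79.4, 57.2 and 51.5 CPM in β-NMN lungs, and its sign turned, to 0.22 (SE 0.23), without vehicle lung 2, where Myd88 was at −0.27 and Irak2 at −0.13. Among processing genes, Casp4 (−0.29), Pycard (−0.37) and Nlrp1a (0.66) had the smallest p, and were at −0.38, −0.08 and 0.31 without that lung. The medians were −0.18 and 0.07, against 0.00 over all genes, and 0.04 and −0.10, against 0.02, without vehicle lung 2.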
